A study of Mus musculus with 2 samples.

Results

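The HOX cluster genes were taken as every row whose symbol is Hox followed by a cluster letter from a to d and a number, which gave 39 genes of the 55487 rows in the table. They were followed in 2 RNA-seq libraries of MC3T3-E1, a mouse cell line with osteoblast character that was derived from calvaria, the roof of the skull. One library came from cells given 10 nM parathyroid hormone (PTH) and the other from untreated cells, both labelled 1 h. Per the labels, both were grown in medium with 10% fetal bovine serum and antibiotics and seeded at 25000 cells per cm2, and PTH was added 24 h later. MC3T3-E1 is a single clonal line and each condition has 1 library, so nothing below could be checked against replicates and no test was made.

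HOX genes encode transcription factors that bind DNA through a homeodomain, the protein fold specified by a stretch of DNA called the homeobox. In the mouse they lie in 4 clusters, Hoxa to Hoxd, and genes of different clusters with the same number (a paralog group) descend from the same ancestral gene. Low-numbered genes are expressed towards the head and high-numbered genes towards the tail and the ends of the limbs, and together they give cells along the body axis their positional identity. Cells of the cranial neural crest that build the face and the front of the skull are known for lacking HOX expression in the embryo. PTH acts on osteoblasts through a receptor that raises cyclic AMP.

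Of the 39 HOX genes, 23 had at least 20 counts when both libraries were summed and were compared, 3 had fewer counts, and 13 were listed at 0 in both libraries. A group of neighbouring genes at the high-number end of the Hoxc cluster, Hoxc13, Hoxc12 and Hoxc11, had fewer reads in the PTH library, together with Hoxa9. Hoxb9 had more reads in the PTH library. The other 18 compared genes did not pass the rule of size used here, that the whole 95% exact counting interval of the ratio, PTH over untreated, lies beyond 1.5-fold. By this rule 4 of 23 HOX genes, 17.4%, had fewer reads, against a background of 3.54% of all 16408 rows compared. That background falls with depth, from 8.14% of rows with 20 to 99 counts to 4.53% under 1000 and 1.57% from 1000 up. These classes hold 6, 15 and 2 of the HOX genes. In the other direction 1 of 23, 4.35%, had more reads, against a background of 5.39%, and the background of both directions together is 8.93%. Counts were scaled by effective library sizes before the ratio was taken, and intervals cover counting error only. In RNA from whole cultures, fewer cells that express a gene and less of its RNA per cell cannot be told apart.

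Hoxb9, the 1 gene with more reads after PTH, and Hoxc9, a gene of the same paralog group that was neither, show how far such paralogs differ in sequence. The homeobox was found in all 39 genes, in a single exon of each, and is 180 bases long (GENCODE M21 transcripts, GRCm38, the assembly also called mm10). The capitals mark the 29 positions where Hoxb9 and Hoxc9 differ. That of Hoxb9 lies in exon 2 at chr11:96274659-96274838 on the plus strand, and that of Hoxc9 in exon 3 at chr15:102983930-102984109 on the plus strand.
Hoxb9: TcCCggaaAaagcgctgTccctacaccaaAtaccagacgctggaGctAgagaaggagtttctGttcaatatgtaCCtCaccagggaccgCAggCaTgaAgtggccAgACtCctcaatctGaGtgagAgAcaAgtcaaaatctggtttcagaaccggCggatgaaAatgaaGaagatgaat
Hoxc9: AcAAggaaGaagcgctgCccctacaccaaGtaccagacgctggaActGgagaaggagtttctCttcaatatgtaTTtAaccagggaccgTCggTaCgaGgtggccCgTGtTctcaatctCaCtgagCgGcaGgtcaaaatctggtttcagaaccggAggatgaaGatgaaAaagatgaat

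Between Hoxb9 and Hoxc9 151 of 180 bases are identical, with 24 bases as the longest identical run. Over the 42 pairs of genes in the same paralog group, homeobox identity ran between 67.2% and 93.9%, with a median of 80.6%. Over the 172 pairs within a cluster the median was 61.7%, and the longest identical run was 47 bases within a paralog group and 52 bases over all 741 pairs. How reads that match more than 1 gene were counted is not known here.

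The homeoboxes of the neighbouring genes Hoxc13, Hoxc12 and Hoxc11, which all had fewer reads in the PTH library, are shown with capitals at each base that differs from Hoxc9, a gene of the same cluster that did not pass the rule. They lie in exon 2 of each gene on the plus strand, at chr15:102927210-102927389 for Hoxc13, chr15:102938308-102938487 for Hoxc12 and chr15:102956480-102956659 for Hoxc11.
Hoxc13: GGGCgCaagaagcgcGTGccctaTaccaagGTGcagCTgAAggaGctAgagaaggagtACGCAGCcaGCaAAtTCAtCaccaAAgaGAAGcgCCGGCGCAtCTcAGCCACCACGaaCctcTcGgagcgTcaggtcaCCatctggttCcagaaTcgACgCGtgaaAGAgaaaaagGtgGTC
Hoxc12: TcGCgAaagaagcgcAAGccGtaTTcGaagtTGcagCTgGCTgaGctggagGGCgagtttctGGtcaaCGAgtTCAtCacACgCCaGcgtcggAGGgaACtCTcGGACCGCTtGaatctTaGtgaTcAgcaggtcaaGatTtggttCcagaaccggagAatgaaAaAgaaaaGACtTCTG
Hoxc11: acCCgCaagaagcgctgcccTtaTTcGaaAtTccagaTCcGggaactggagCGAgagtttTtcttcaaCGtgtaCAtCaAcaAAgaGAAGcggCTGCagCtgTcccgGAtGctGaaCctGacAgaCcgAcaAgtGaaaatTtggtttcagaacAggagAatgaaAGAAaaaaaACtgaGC

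From Hoxc9, Hoxc13 differs at 78 bases, Hoxc12 at 69 and Hoxc11 at 56. Among the 3 themselves identity ran between 61.1% and 65%, with 12 bases as the longest identical run of any pair.

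The PTH library held 70036872 counts and the untreated library 66302211. HOX genes were a small part of either library, with 3737 counts in the PTH library and 5156 in the untreated library. Per 1000000 counts of the library (CPM) that is 53.4 with PTH and 77.8 untreated. Osteoblast markers were all measured, 11 of 11 genes, at a summed 56667 scaled CPM in the PTH library and 54168 in the untreated library. Most of this sum came from 2 collagen genes. Col1a1 had 2093308 counts with PTH and 1935295 untreated, and Col1a2 had 1769746 with PTH and 1642861 untreated. The least counted were Bglap, Dmp1 and Phex, at 87, 49 and 34 counts with PTH and 57, 74 and 28 untreated. The sums for other cell types were lower, with 4 of 8 chondrocyte genes measured (sums of 728 with PTH and 473 untreated), 5 of 9 macrophage and osteoclast genes (99.5 with PTH and 88.1 untreated), 3 of 7 adipocyte genes (15.6 with PTH and 13 untreated), 2 of 8 muscle genes (0.94 with PTH and 2.87 untreated) and 2 of 7 endothelial genes (2.72 with PTH and 2.2 untreated). Most of the chondrocyte and macrophage sums came from Col2a1, with 38400 counts with PTH and 27597 untreated, and Ctsk, with 6452 with PTH and 5656 untreated. Among other defining genes of these lists Acan, Ptprc, Adipoq, Myod1 and Cdh5 were listed at 0 in both libraries. Past the rule with more reads were Sox9, 1 of 4 measured chondrocyte genes, and Cd14, 1 of 5 macrophage and osteoclast genes. Sp7, 1 of 11 osteoblast genes, and Acta1, 1 of 2 muscle genes, had fewer. Over all rows 8.93% are past the rule in either direction. Counts with PTH and untreated were 10982 and 3264 for Sox9, 173 and 14 for Cd14, 1974 and 4583 for Sp7, and 28 and 124 for Acta1. The part of these genes in the HOX differences was not tested.

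Levels were compared between genes as scaled CPM per kb of exon. Hoxc13, which is required for hair and nail formation, was the highest HOX gene in both libraries, at 4.87 in the PTH library and 11.2 in the untreated library. Its level lay above that of 48.2% of protein-coding rows compared in the PTH library and 70.3% in the untreated library. Hoxc9, a gene of thoracic identity, followed at 3.54 in the PTH library and 5.06 in the untreated library. Hoxc4 was next, at 1.96 with PTH and 2.52 untreated, and then Hoxa10, known for its role in the uterus, at 1.57 with PTH and 2.04 untreated. Hoxb9 was at 0.601 with PTH, above the median, and at 0.0984 untreated, where it was the lowest of the 23. Hoxc12 was the lowest in the PTH library, at 0.0281, against 0.303 untreated. The median level of the 23 was 0.479 in the PTH library and 0.398 in the untreated library, under the medians of 5.26 with PTH and 5.28 untreated over the 12771 protein-coding rows compared. Most HOX genes were thus present at low levels, with Hoxc genes at the top of the order.

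**Figure D1:**
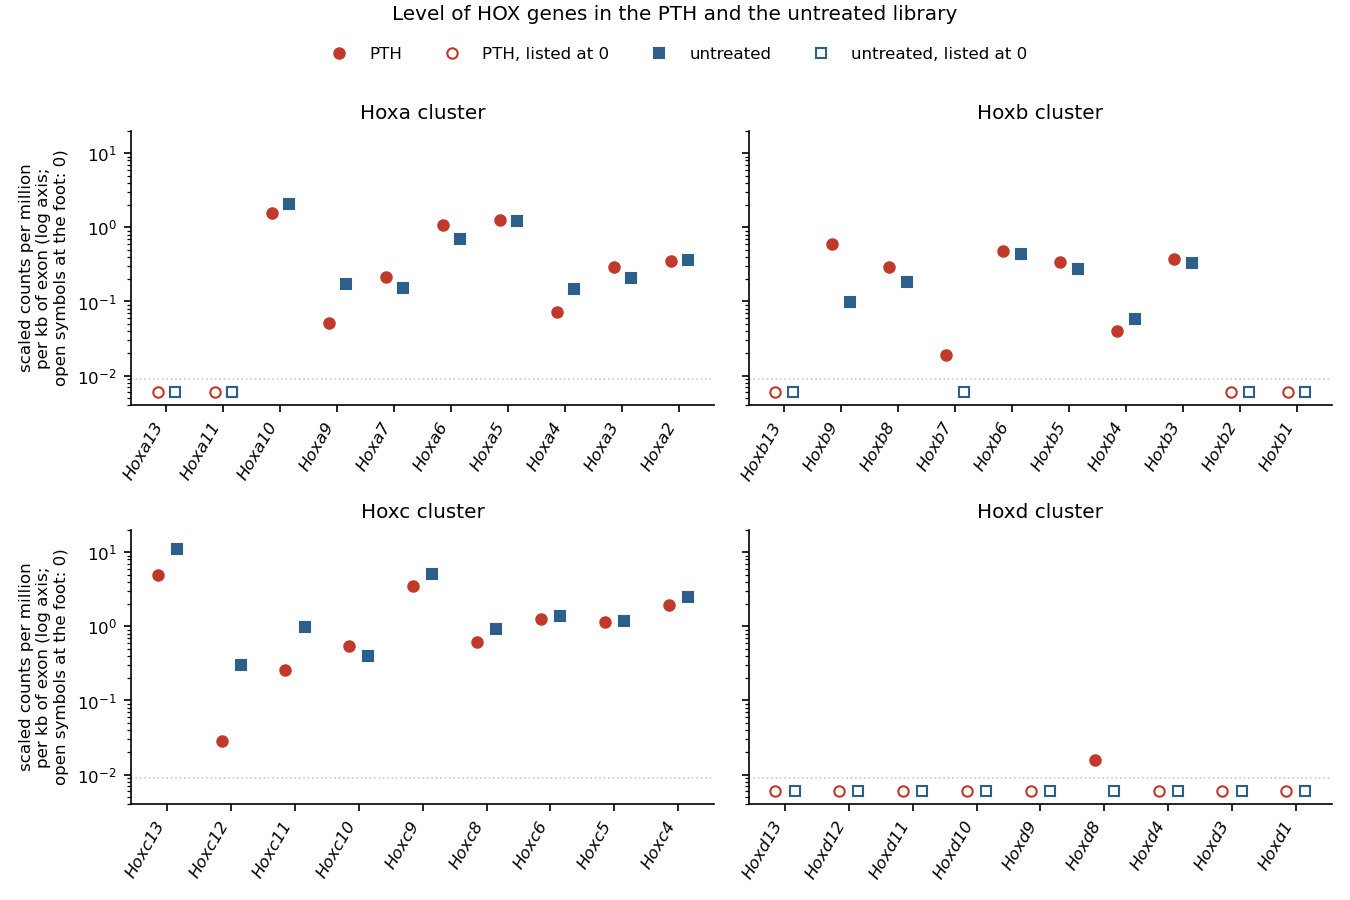
Level of 38 HOX genes in the PTH library (circles) and the untreated library (squares), as scaled CPM per kb of exon on a log axis, in 1 panel per cluster with gene numbers falling from left to right; open symbols at the foot mark genes listed at 0. Hoxc13 stands highest in both libraries, at 4.87 with PTH and 11.2 untreated, and 8 of 9 Hoxd genes are listed at 0 in both.

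The clusters differed in how many of their genes were counted. All 9 Hoxc genes (chromosome 15) were measured, 9 of 11 Hoxa genes (chromosome 6), 5 of 10 Hoxb genes (chromosome 11) and none of 9 Hoxd genes (chromosome 2). Hoxd8 was at 3 counts in the PTH library and 0 in the untreated library, and the other 8 Hoxd genes, which include the genes known for patterning the digits, were listed at 0 in both. The nearest other protein-coding genes with a count on each side of the Hoxd cluster were Lnpk and Mtx2. Lnpk was at 3866 in the PTH library and 3562 in the untreated library, and Mtx2 at 1714 with PTH and 1847 untreated. These genes were picked for having counts, and any nearer gene listed at 0 was passed over. The other genes listed at 0 in both libraries were Hoxa11, Hoxa13, Hoxb1, Hoxb2 and Hoxb13. A listed 0 allows up to 3 counts under sampling alone, which is 0.0434 scaled CPM in the PTH library and 0.0447 in the untreated library. It is not read as that limit here, since 137 of the 3329 rows with 20 to 99 counts in all were listed at 0 in a single library. Hoxb4, at 7 counts in the PTH library and 10 in the untreated library, and Hoxb7, at 2 with PTH and 0 untreated, were counted but not compared.

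Summed over genes, Hoxc counts were 2448 in the PTH library and 3961 in the untreated library. Their ratio of scaled sums was 0.6 (95% exact interval 0.57 to 0.631), beyond the 1.5-fold limit that was set for single rows. Hoxc13 alone gave 829 of these counts with PTH and 1850 untreated. The sum from Hoxc4 to Hoxc10, a stretch drawn after the calls were known, was not beyond that limit, at 0.785 (0.734 to 0.839). Hoxa sums were 876 in the PTH library and 933 in the untreated library, at a ratio of 0.912 (0.83 to 1). Hoxb sums were 410 with PTH and 262 untreated, at a ratio of 1.52 (1.3 to 1.78), and without Hoxb9 the ratio was 1.2 (1.01 to 1.43). The Hoxc share of all HOX counts was 65.5% in the PTH library (64 to 67) and 76.8% in the untreated library (75.6 to 78), by exact binomial intervals. Over all 39 genes the ratio of sums was 0.704 (0.675 to 0.734), and without Hoxc13 alone it was 0.854 (0.812 to 0.898), so much of the lower sum lay in 1 gene.

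Hoxc13 had 829 counts in the PTH library and 1850 in the untreated library, the most of any HOX gene in each. It was 2.3-fold lower with PTH (2.12 to 2.5). Next to it, Hoxc12, a gene of the tail end of the body, was at 2 counts with PTH and 21 untreated, a ratio of 0.0925 with a wide interval of 0.0105 to 0.378. Hoxc11, known from hindlimb and kidney development together with its paralogs, had 36 counts with PTH and 134 untreated and was 3.83-fold lower (2.64 to 5.7). Each of these intervals lay wholly below the limit of 1.5-fold, and the 3 genes share no annotated exon with another gene. Between Hoxc12 and Hoxc11, on the opposite strand, lies Hotair (chr15:102944062-102947730), a long noncoding RNA studied in human cells as a regulator of HOXD genes in trans. Hotair had 55 counts in the PTH library and 138 in the untreated library and was 2.58-fold lower (1.88 to 3.6). Of its exonic length 8.33% is annotated to small RNA genes on the opposite strand that were listed at 0. Every measured gene in the 36.6 kb from the start of Hoxc13 to the end of Hoxc11 thus had fewer reads by the rule. The ends of this stretch were set by the calls. With intervals widened for an assumed coefficient of variation of 0.2 between cultures, taken as equal at every depth, Hoxc13 and Hotair were no longer past the rule.

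Hoxc10, which starts 9.09 kb beyond Hoxc11 and is known for specifying motor neurons of the lumbar cord, had 71 counts with PTH and 51 untreated. Its ratio of 1.35 (0.93 to 1.98) was the only one above 1 among the 9 Hoxc genes. A small part of its exons, 8.7%, is also annotated to Hoxc5. The remaining Hoxc genes had ratios below 1 and were not past the rule. Hoxc9 had 595 counts with PTH and 826 untreated, a ratio of 0.7 (0.628 to 0.778). Hoxc8, a thoracic gene whose product was reported to repress the osteopontin gene until bound by Smad1, had 119 counts with PTH and 176 untreated, a ratio of 0.657 (0.516 to 0.833). Both intervals excluded 1 but reached across the limit, so neither gene was past the rule. Hoxc6, with 207 counts with PTH and 224 untreated, and Hoxc5, with 241 with PTH and 245 untreated, had ratios of 0.897 (0.739 to 1.09) and 0.955 (0.796 to 1.15). Hoxc4, the last gene of the cluster, had 348 counts with PTH and 434 untreated, a ratio of 0.779 (0.674 to 0.899). From Hoxc4 to Hoxc10 the summed counts were 1581 with PTH and 1956 untreated, a ratio of 0.785 (0.734 to 0.839), while from Hoxc11 to Hoxc13 they were 867 with PTH and 2005 untreated, a ratio of 0.42 (0.387 to 0.455). The boundary between these sums was drawn after the calls were known, so the lower one restates them, and 829 of its counts with PTH and 1850 untreated are those of Hoxc13. The nearest other protein-coding genes with a count on each side of the cluster were near 1, Calcoco1 at 1.04 (0.973 to 1.12) and Smug1 at 1.03 (0.934 to 1.15).

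**Figure D2:**
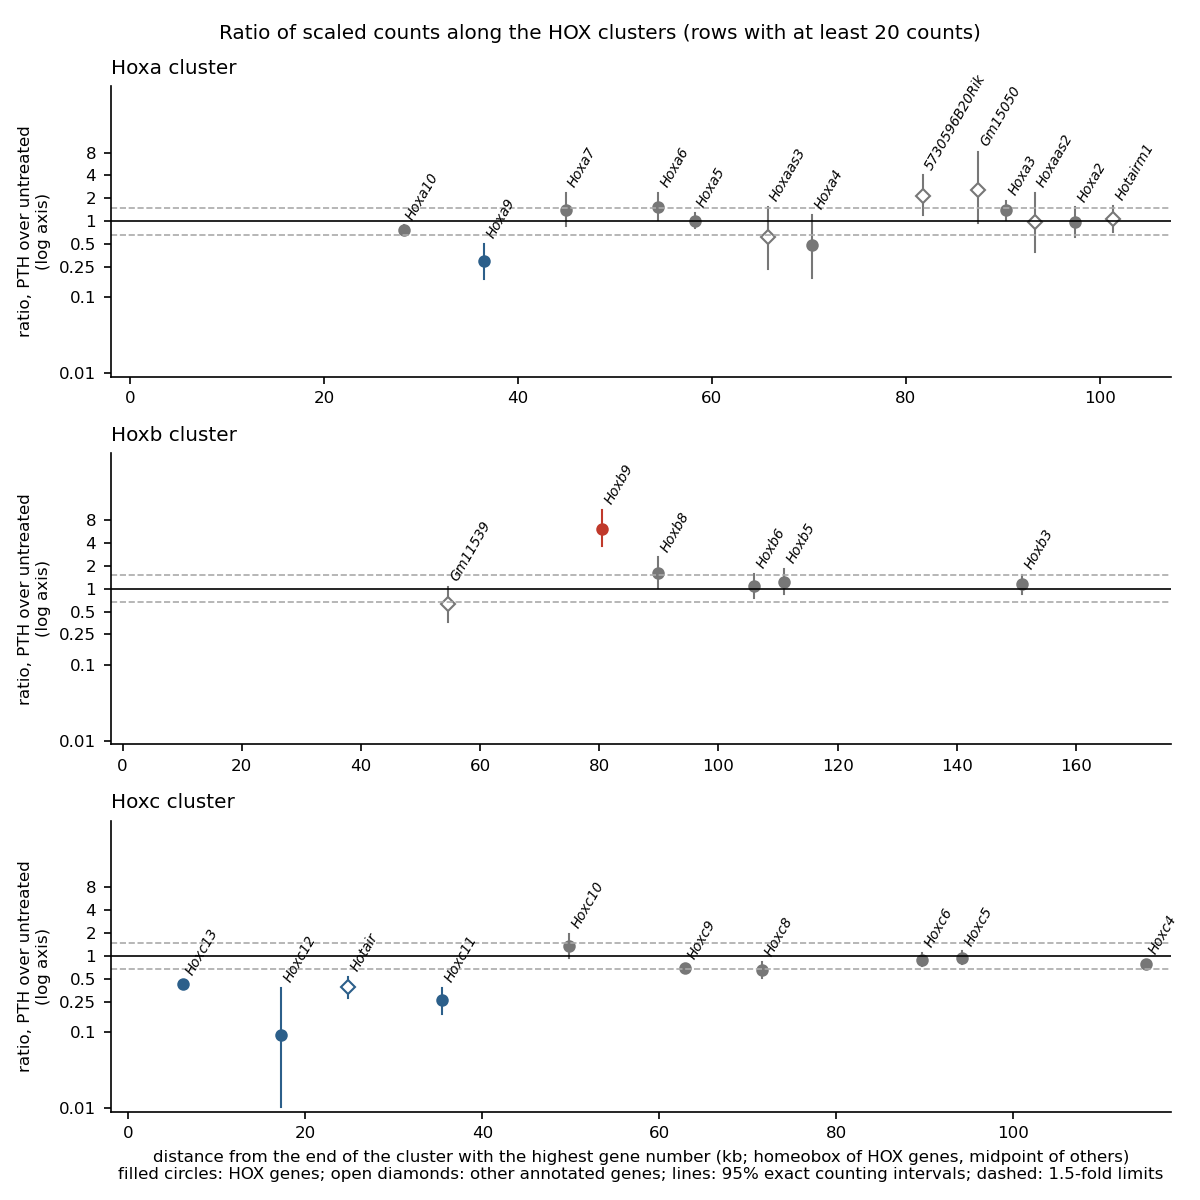
Ratio of scaled counts, PTH over untreated, on a log axis against the distance in kb from the high-number end of the Hoxa, Hoxb and Hoxc clusters, for HOX genes (filled circles) and other annotated genes inside the clusters (open diamonds) with at least 20 counts; lines are 95% exact counting intervals and dashed lines the 1.5-fold limits. The 4 leftmost points of the Hoxc panel, Hoxc13, Hoxc12, Hotair and Hoxc11, lie below the lower limit, and Hoxc10 beside them is at 1.35.

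In the Hoxa cluster 1 of 9 measured genes was past the rule, where 8.93% of all rows are in either direction and 3.54% with fewer reads. Hoxa9, a gene of blood progenitors and of leukaemia, had 20 counts in the PTH library and 64 in the untreated library and was 3.3-fold lower with PTH (1.97 to 5.75). Of its exonic length, 1.52% is also annotated to Mir196b. Hoxa10, the next gene in the cluster, had 354 counts with PTH and 448 untreated, at a ratio of 0.767 (0.666 to 0.884). On the other side, Hoxa7 had 42 counts with PTH and 29 untreated, a ratio of 1.41 (0.856 to 2.34). Hoxa6, at 66 counts with PTH and 41 untreated, had a ratio of 1.56 whose interval of 1.04 to 2.37 excluded 1 and reached below the limit. Hoxa9 therefore stood apart from both of its neighbours, whose ratios were nearer 1.

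Among the other Hoxa genes, Hoxa5, a gene of the cervical region and the lung, had 161 counts with PTH and 153 untreated, a ratio of 1.02 (0.814 to 1.28). Hoxa4 had 8 counts with PTH and 16 untreated, a ratio of 0.486 with an interval of 0.18 to 1.2. Hoxa3, which is needed for the thymus and the parathyroid glands to form, had 122 counts with PTH and 85 untreated, a ratio of 1.39 (1.05 to 1.86). None of these was past the rule. Hoxa2, the gene that sets the identity of the second branchial arch and holds back bone formation there, had 43 counts in each library, a ratio of 0.971 (0.621 to 1.52). Hoxa3 and Hoxa7 share 25.4% and 20.4% of their exonic length with genes on the opposite strand, and these rows are uncertain because the sources used here do not say if strand was used in counting.

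Within the Hoxb cluster all 5 measured genes had ratios above 1 and 1 was past the rule, beside the background of 5.39% with more reads. Hoxb9, which acts in the thoracic skeleton, had 107 counts in the PTH library and 17 in the untreated library. It was 6.11-fold higher with PTH (3.64 to 10.9) and shares no annotated exon with another gene. Hoxb8, known from blood progenitors and from grooming behaviour in mice, had 53 counts with PTH and 32 untreated, a ratio of 1.61 (1.02 to 2.58). Hoxb6 had 65 counts with PTH and 58 untreated, a ratio of 1.09 (0.752 to 1.58), and Hoxb5 had 65 with PTH and 51 untreated, a ratio of 1.24 (0.845 to 1.82). Hoxb3, a hindbrain gene, had 111 counts with PTH and 94 untreated, a ratio of 1.15 (0.863 to 1.53). Its exons overlap those of Hoxb3os on the opposite strand over 52.9% of their length. Apart from Hoxb9, the Hoxb intervals included 1, except that of Hoxb8, whose lower bound was 1.02. Of the nearest other protein-coding genes with a count on each side of the cluster, Atp5g1 was at 1.05 (1.01 to 1.09). Skap1, on the other side, had 0 counts with PTH and 17 untreated, as many untreated as Hoxb9, and was not compared.

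**Figure D3:**
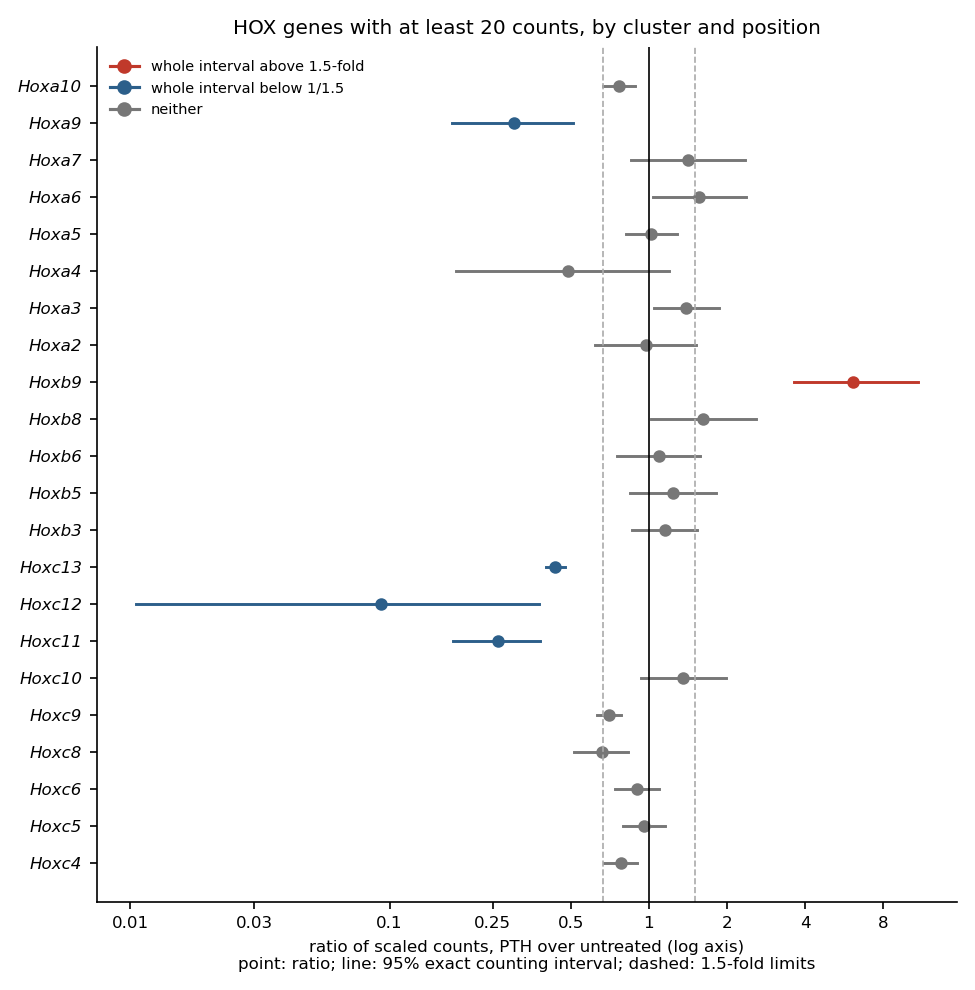
Ratio of scaled counts, PTH over untreated, for 22 HOX genes with at least 20 counts, listed by cluster and falling gene number, on a log axis; points are ratios, lines 95% exact counting intervals and dashed lines the 1.5-fold limits. Hoxa9, Hoxc13, Hoxc12 and Hoxc11 lie wholly below the lower limit, Hoxb9 lies wholly above the upper one, and the 17 others are neither.

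Ordered by gene number, all 5 genes past the rule were numbered 9 to 13. Of 8 measured genes numbered 9 to 13, 4 had fewer reads, 1 had more and 3 were neither, beside the background of 3.54% with fewer and 5.39% with more over all rows. The median log2 ratio of the 8 was -0.86. Gene number cannot be told apart from cluster here. Hoxc genes make up 5 of the 8, and 3 of the 4 with fewer reads are the neighbours Hoxc13, Hoxc12 and Hoxc11. None of 11 measured genes numbered 4 to 8 and none of 4 numbered 1 to 3 was past the rule, with medians of 0.03 and 0.15. The median over all 23 was -0.04, beside 0.00 over all 16408 rows. Genes numbered 9 to 13 held 53.9% of HOX counts in the PTH library (52.3 to 55.5) and 66.2% in the untreated library (64.8 to 67.4). Group 13, in which Hoxc13 is the only gene counted, held 22.2% in the PTH library (20.9 to 23.6) and 35.9% in the untreated library (34.6 to 37.2). Paralog group 5 held 12.5% with PTH (11.5 to 13.6) and 8.71% untreated (7.95 to 9.51), though its counts were close, 467 with PTH and 449 untreated, a ratio of 1.01 (0.885 to 1.15).

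**Figure D4:**
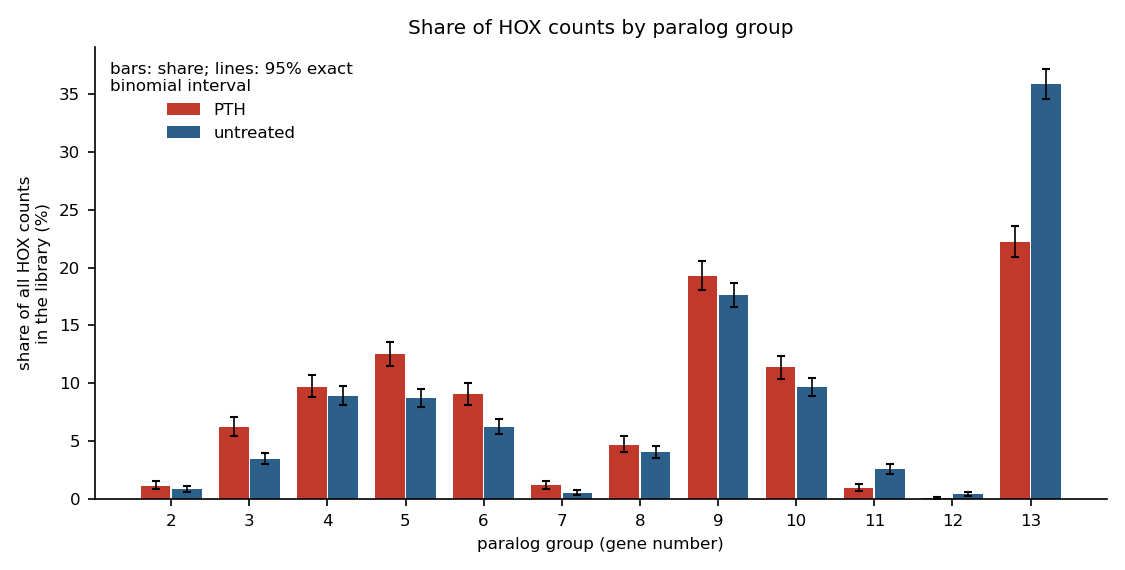
Share of all HOX counts of a library that fell to paralog groups (genes of the same number) 2 to 13, in percent, for the PTH library (left bars) and the untreated library (right bars), with 95% exact binomial intervals. Group 13 holds 22.2% with PTH and 35.9% untreated, and group 5 holds 12.5% with PTH and 8.71% untreated.

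The rows past the rule differ in how often rows of their depth pass it. Among all rows with 20 to 99 counts in total, 8.14% had fewer reads by the rule, and here 2 of 6 HOX genes did, Hoxa9 and Hoxc12. With 100 or more but under 1000 counts, 6.52% of all rows had more reads and 4.53% fewer, and 1 of 15 HOX genes went each way, Hoxb9 and Hoxc11. With 1000 or more counts 1.57% of all rows had fewer reads, and 1 of the 2 HOX genes at that depth, Hoxc13, was among them. The SD of the log2 ratio over all rows was 1.64 in the lowest of these classes and 0.39 in the highest. When intervals were widened for an assumed coefficient of variation of 0.1 between cultures, all 5 genes were still past the rule, against backgrounds of 2.46% with fewer reads and 4.14% with more. With one of 0.2, Hoxc11, Hoxc12 and Hoxa9 still had fewer reads by the rule, against a background of 1.63%, Hoxb9 still had more, against 2.89%, and Hoxc13 and Hotair were no longer past it. The coefficient was assumed equal at every depth, while the SD over all rows was larger in the lowest class than in the highest. Passing with 0.2 therefore does not rank these genes. Hoxa9 and Hoxc12, at log2 ratios of -1.70 and -3.15, lie in the lowest class, and Hoxc13, at -1.20, in the highest.

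Inside the clusters, 7 further annotated genes had 20 or more counts, and of these Hotair alone was past the rule. Over all rows compared 8.93% are past it in either direction. Hoxaas2, with 12 counts in each library, Hoxaas3, with 9 counts with PTH and 14 untreated, and Gm15050, with 16 with PTH and 6 untreated, had intervals that included 1. The row 5730596B20Rik had 40 counts with PTH and 18 untreated, a ratio of 2.16 (1.21 to 4). In the Hoxb cluster Hoxb5os, antisense to Hoxb5, had 17 counts with PTH and 1 untreated and was not compared, and Hoxb3os was at 0 with PTH and 9 untreated. The microRNA genes Mir196a-1 and Mir615 had 1 and 2 counts with PTH and 0 untreated, and Mir10a, Mir10b, Mir196a-2 and Mir196b were listed at 0 in both libraries.

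Proteins of the TALE class, PBX, MEIS and PKNOX, bind DNA together with HOX proteins. Of 9 such genes 8 were measured and none was past the rule, where 8.93% of all rows are in either direction. Their log2 ratios had a median of -0.16. Meis2 had 2528 counts with PTH and 2463 untreated, a ratio of 0.997 (0.943 to 1.05). Polycomb complexes keep HOX genes silent through histone methylation and ubiquitination, and of 28 such genes 27 were neither, so that the 1 past the rule is no more than the background of 5.39%. It was Aebp2, a cofactor of the methylating complex, which had 21198 counts with PTH and 10084 untreated and was 2.04-fold higher (1.99 to 2.09). Among 14 trithorax and H3K27 demethylase genes, which work against Polycomb, Kdm6b was past the rule, with 5286 counts with PTH and 3185 untreated, 1.61-fold higher (1.54 to 1.68). The other 13 were neither, beside the same background of 5.39% with more reads. The medians of the Polycomb and trithorax lists were -0.11 and -0.03.

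Retinoic acid is a known inducer of HOX genes at the low-number end. Of 18 genes of its pathway 12 were measured. Rara, a retinoic acid receptor, had 2471 counts with PTH and 4177 untreated and was 1.74-fold lower (1.66 to 1.83). Dhrs3, a retinal reductase that lowers retinoic acid synthesis, had 1429 counts with PTH and 698 untreated and was 1.99-fold higher (1.81 to 2.18). The other 10 were neither and the median was -0.03, where the background past the rule in either direction is 8.93%. Genes for geminin, CTCF and cohesin, which shape chromatin at the clusters, were neither in 9 of 9 cases, with a median of -0.01. The most counted of them were Rad21 and Smc1a, both cohesin subunits, at ratios of 1 (0.982 to 1.02) and 1.09 (1.06 to 1.11). Cdx1, Cdx2 and Cdx4, which activate HOX genes in the embryo, and Evx2, Gsx1, Gsx2 and Pdx1 were listed at 0 in both libraries, and Evx1 was at 4 counts with PTH and 0 untreated.

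Other genes of position were counted beside the HOX genes. Of 16 head and cranial factors 14 were measured, of which 1 had more reads, 2 fewer and 11 neither, where 8.93% of all rows are past the rule in either direction. Tfap2a, a neural crest factor, was 2.41-fold higher (2.19 to 2.65), with 1492 counts with PTH and 602 untreated. The homeobox genes Msx2 and Dlx3 were 2.34-fold (2.04 to 2.7) and 1.88-fold lower (1.67 to 2.12). Of 12 limb and trunk factors 6 were measured and none was past the rule, with Tbx15 at 3650 counts with PTH and 3140 untreated and Tbx18 at 1907 with PTH and 1855 untreated. The limb identity genes Tbx5 and Pitx1 were listed at 0 in both libraries and Tbx4 was at 3 counts with PTH and 0 untreated. The medians of these lists were 0.06 and 0.16. With the interval widened for the coefficient of variation of 0.2, no member of the TALE, Polycomb, trithorax, retinoic acid, cohesin, head or limb lists was past the rule. The backgrounds over all rows at that width are 2.89% with more reads and 1.63% with fewer. For scale, all 10 genes of a list of known cyclic AMP targets had more reads by the unwidened rule, beside a background of 5.39%, led by Rgs2, Nr4a2 and Crem. With the widened interval 9 of the 10 did. The median of the log2 ratios of all 10 was 2.78. The list was chosen with earlier results of these data known, so it is not an independent yardstick.

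**Figure D5:**
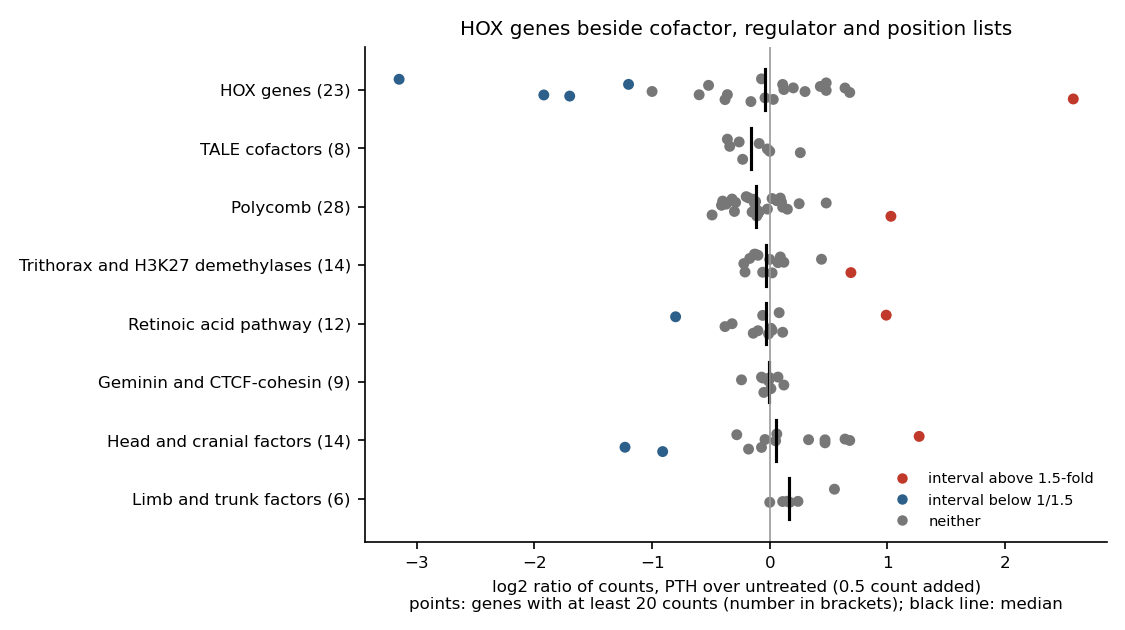
Log2 ratio of counts, PTH over untreated, with 0.5 count added to each library, for genes with at least 20 counts in the HOX set and in 7 other lists; each point is a gene and black lines are medians. HOX genes spread between -3.15 and 2.58 around a median of -0.04, and the list of geminin, CTCF and cohesin genes lies between -0.24 and 0.12.

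Promoter windows from 250 bases before to 50 after a start site were at hand for 22 of the 39 HOX genes, in 24 windows (RefSeq, GRCm38.p6), and of the 5 genes past the rule Hoxa9 alone has one. The full cyclic AMP response element TGACGTCA stood in 0 of the 24 windows and in 1.79% of all 32851. Its shorter form TGACG, searched on both strands and contained in the full one, stood in 7 of 24 windows, 29.2%, against 20.8% of all, and not in that of Hoxa9. Of the genes with it, Hoxa5 and Hoxa6 were not past the rule, and Hoxa11, Hoxb1, Hoxd3, Hoxd8 and Hoxd11 were not compared. Such a match is a description of these letters in these windows only. The median share of G and C bases was 57.7% in the HOX windows and 52.7% in all windows. Its part in the difference in TGACG was not tested.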

How the data were processed

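The authors deposited 1 table of whole-number read counts per gene, not normalised, with 1 column per library. The submitters' processing notes name HISAT2 and the mm10 build. Not given in the sources used here are the HISAT2 version, the counting tool, its annotation and use of strand, and how reads matching several genes were handled.

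From these counts, TMM library sizes were computed with edgeR 4.0.16 in R 4.3.3 on rows with at least 20 counts summed over both libraries. Ratios, PTH over untreated, carry 95% exact conditional (Clopper-Pearson) intervals from scipy 1.17.1, which cover counting error only. A row was called when its whole interval lay beyond 1.5-fold. The planned count test of edgeR could not be fitted since 1 library per group leaves the residual without degrees of freedom. Log2 ratios add 0.5 count to each library. Gene lengths are unions of exons in GENCODE M21, which annotates 55227 of the 55487 rows.

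The HOX genes and all lists were chosen with earlier results of these data known. HOX genes are given by name or in the counts, and a few single values and a sequence are not reported here. From the regulator and position lists the text names up to 3 members past the rule with the bound farthest from 1, or the 2 with most counts, and beyond that the members listed at 0 or nearly so, which were picked after their values were seen. Promoters of HOX genes were searched for TGACGTCA and TGACG on both strands. The homeobox was located by a script from the coding sequences. Alternatives were the scaling, filter, fold limit, interval width, exon overlap, added count and gene length.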

Additional observations from a re-analysis of the deposited data

How the results depend on the processing

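No paired analysis was possible because each group has 1 library, so leaving out a replicate and the DESeq2 test were not run either. Hoxb9 was the 1 HOX gene with more reads under every alternative tried. The count of HOX genes with fewer reads was 4 in the reported setting and 2 among the 17 genes with a total count of 100 or more (Hoxc11 and Hoxc13), where fewer genes are tested. It was 5 at the lower of the other fold limits tried, which adds Hoxc9, and 3 at a 2-fold limit, with the interval widened for a coefficient of variation of 0.2, or with 10 or more counts in each library, a filter chosen after seeing the data. The median log2 ratio of -0.04 became -0.08 with total-count scaling and -0.07 with upper-quartile scaling, which move the median of all rows by -0.04 and -0.02. It was -0.05 at a total of 10 or more, 0.03 at 100 or more, -0.01 with any count and 0.03 with 10 or more counts in each library, so its sign depends on the filter. Ordering genes by their longest transcript changed the order of 14 of 253 pairs. Ratios of cluster sums ran between 0.844 and 0.912 for Hoxa, 1.48 and 1.73 for Hoxb, and 0.585 and 0.6 for Hoxc. Depth limits the genes with few reads: Hoxc12 rests on 2 counts with PTH and 21 untreated.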
